A study of Rattus norvegicus with 8 samples.

Results

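The proteasome is the barrel-shaped protease that degrades ubiquitin-tagged proteins, and its genes were compared between kidneys of APL-treated rats and of Control rats. The genes were those whose symbol starts with Psma to Psmg and a number, with the symbol found from each probe's transcript accession. This rule gave 46 genes on 52 probes, all 46 of them among the 21416 genes or unnamed transcripts tested. Psmc3ip, a recombination cofactor, and Psme3ip1, a protein that binds Psme3, carry such a name without being subunits. They are listed apart, which left 44 genes, 5 of immune type and 39 others. For 8 further symbols of this form no probe was named here: Psmb11, Psmb3l1, Psmb3l2, Psmb6l1, Psmd11, Psmg1, Psmg3 and Psmg4l1. Of the 52 probes, 50 were well above background on at least 4 of 8 arrays, and the other two belonged to Psma8, which had 1 probe left.

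Samples were total RNA of kidney from male SD rats (Sprague-Dawley, an outbred strain) 10 weeks old, each on 1 single-colour Agilent array. The APL group was 4 samples after 4 weeks of APL at 150 mg/kg, and the Control group was 4 samples after 4 weeks of 0.5% methylcellulose, a vehicle. APL is read here as allopurinol, a xanthine oxidase inhibitor, because the series title names allopurinol as the agent of its renal fibrosis model. That title speaks of renal tubules and the tissue label of kidney, and the labels do not say that the samples of a group were separate animals, so p-values measure the spread between these samples, which may be technical.

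The core particle of the proteasome is a stack of rings: outer rings of alpha subunits (Psma genes) around inner rings of beta subunits (Psmb genes), of which Psmb5, Psmb6 and Psmb7 carry the catalytic sites. In cells exposed to interferon-gamma, and constitutively in many leukocytes, Psmb8, Psmb9 and Psmb10 are built in instead, giving the immunoproteasome, whose peptides are loaded onto MHC class I molecules. Ring-shaped caps open the core: the regulatory particle of ATPases (Psmc genes) and other subunits (most Psmd genes), or activators. The activator made of Psme1 and Psme2 is also induced by interferon-gamma.

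The 5 immune-type genes were higher in APL kidneys and the rest of the proteasome mostly was not called. All 5 were called higher (limma, Benjamini-Hochberg adjusted p under 0.05), where 11.9% of all tested genes were called higher, and in all 5 the groups did not overlap, which held for 14% of all tested genes in that direction and 29.9% in either. Their median log2 fold change was 3.22. Of the 39 others, 1 was higher, 2 were lower and 36 were not called, where 11.5% of all tested genes were called lower. The median of the 39 was 0.018, with 20 above 0 and 19 below, and that of all tested genes was -0.029. Of the 39, 20 had a 95% interval inside -1 to 1 on the log2 scale, so that changes beyond that size were outside the interval for these and not for the other 19.

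**Figure D1:**
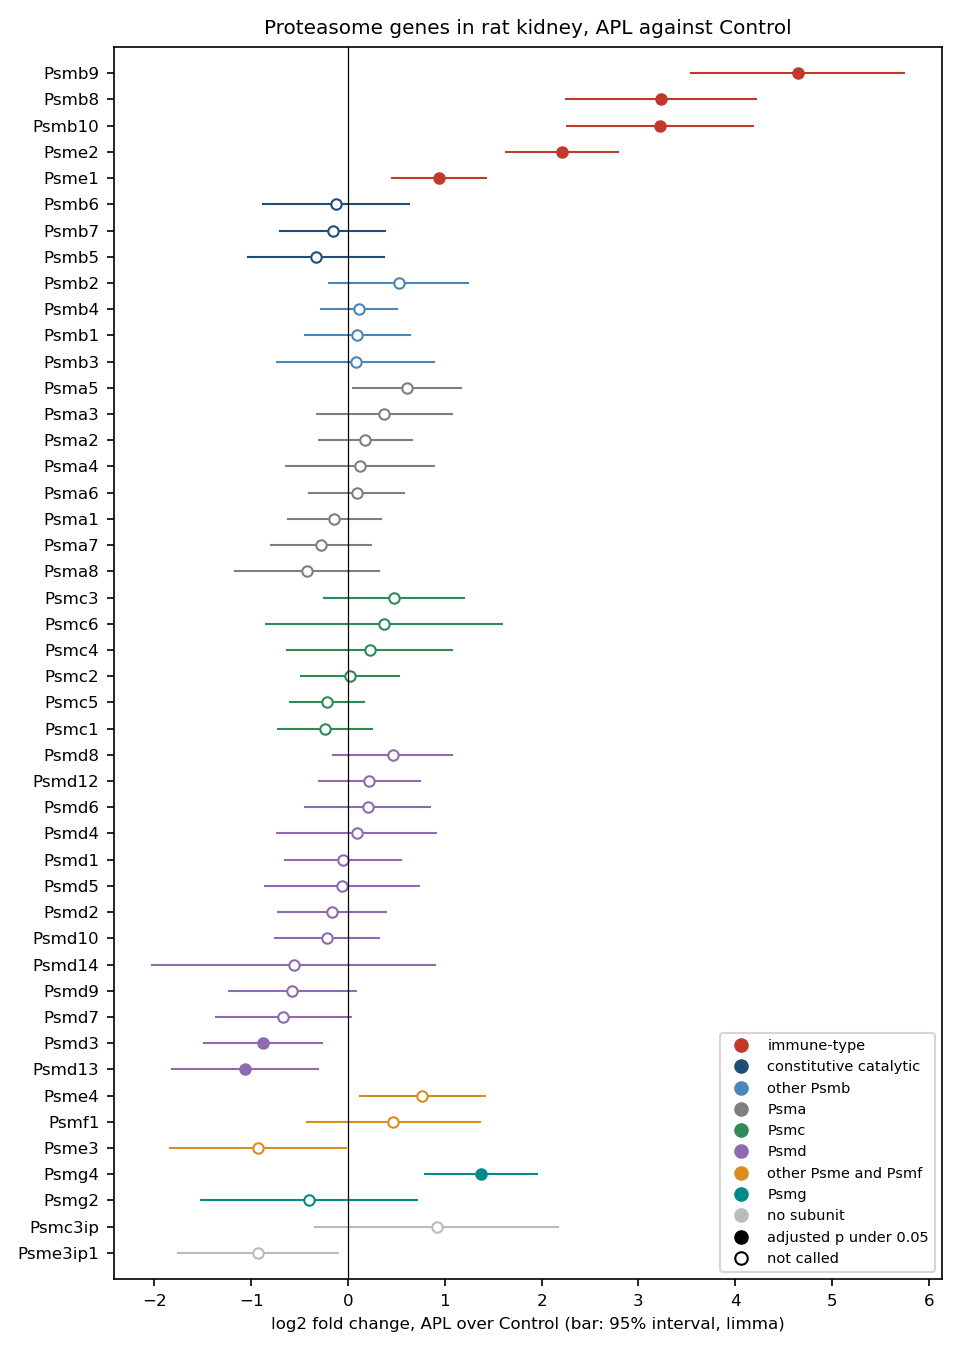
Log2 fold change, APL over Control, of the 46 genes found by the rule, grouped by class, with the 95% interval from limma as a bar and called genes as filled points (n = 4 per group). The 5 immune-type genes lie between 0.94 and 4.64, while the constitutive catalytic genes lie between -0.33 and -0.12 with intervals that include 0.

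Values below are relative signals, the processed signal of a probe divided by the 75th percentile of its array. They compare samples for 1 probe and not the levels of different genes. Psmb9, the immune-type counterpart of Psmb6, had 3.09, 4.59, 5.51 and 5.86 in APL samples, against 0.234, 0.0687, 0.262 and 0.279 in Control samples. The lowest APL sample was far above the highest Control sample, and Control replicate 2 stood apart below the other three. Its log2 fold change was 4.64 ± 0.48 (limma SE, n = 4 each, adjusted p = 0.000442), a 25-fold difference, and 4.17 without that Control replicate.

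Psmb8, the counterpart of Psmb5, had 0.783, 0.677, 0.592 and 1.16 in APL samples, against 0.0675, 0.141, 0.1196 and 0.0409 in Control samples. The APL samples were all higher, and APL replicate 4 was the highest of them. The log2 fold change was 3.23 ± 0.43 (adjusted p = 0.0014), which is 9.40-fold. Psmb10, the counterpart of Psmb7, had 3.65, 3.82, 5.298 and 5.09 in APL samples, against 0.365, 0.256, 0.526 and 1.01 in Control samples. Here too the groups did not overlap, although Control replicate 4 was well above the other Control samples, and the log2 fold change was 3.22 ± 0.42 (adjusted p = 0.00127), or 9.32-fold.

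Psme2, the beta chain of the activator, had 3.18, 3.57, 6.05 and 4.86 in APL samples, against 0.826, 0.857, 1.06 and 0.969 in Control samples. Every APL sample was well above every Control sample, with a log2 fold change of 2.21 ± 0.25 (adjusted p = 0.0007), or 4.62-fold. Psme1, its alpha chain, had 54.2, 60.2, 72.97 and 59.9 in APL samples, against 24.6, 37.02, 31.8 and 36.3 in Control samples. The groups did not overlap, and the log2 fold change of 0.94 ± 0.21 (adjusted p = 0.0162), or 1.92-fold, was the smallest of the 5. All 5 probes were well above background on all 8 arrays.

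With normexp background correction in place of the processed signal, the log2 fold changes of Psmb8, Psmb9, Psmb10 and Psme2 were 1.80, 3.38, 2.51 and 1.80 after 75th percentile scaling, still called, and Psmb8 was at 1.39 with quantile normalization. The call of Psme1 was lost with normexp and 75th percentile scaling (log2 fold change 0.71, adjusted p = 0.256), with scaling to the median (adjusted p = 0.105) and with the replicate number as a block (adjusted p = 0.0516), in a range of 0.000988 to 0.256 over its 21 alternatives. With limma on each slide alone, 2 arrays a group, the first slide called Psmb9, Psmb10 and Psme2 and the other slide called Psmb9. At an unadjusted p under 0.05, 4 and 5 of the 5 were higher. Over all genes tested, 1021 of 21368 on the first slide and 658 of 21399 on the other were called in either direction. An unadjusted p under 0.05 in either direction held for 4985 and 4786 of them. On the log2 scale the SD among Control samples had a median of 0.81 over the 5 genes and of 0.38 over the 39 others. Among APL samples these medians were 0.42 for the 5 genes and 0.29 for the others.

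The immune-type genes were higher in every APL sample. Taken as the deviation from the mean of the Control samples on the log2 scale, the median of the 5 was 2.95, 3.02, 2.84 and 3.43 in APL replicates 1 to 4, against -0.29, -0.11, 0.20 and 0.18 in Control replicates 1 to 4. For the 39 others the median stayed between -0.17 and 0.18 in APL samples, against -0.15 to 0.065 in Control samples.

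**Figure D2:**
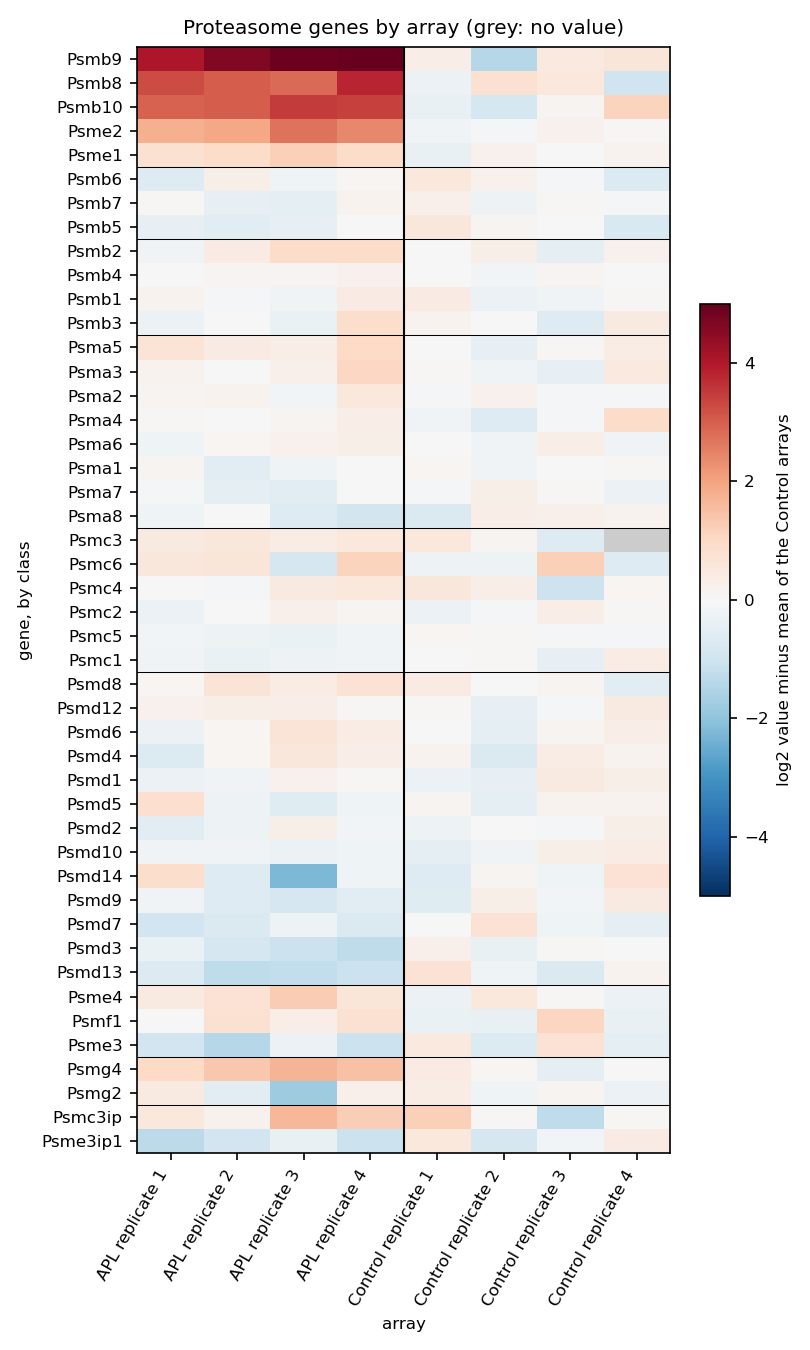
Deviation of each gene from the mean of the Control samples on the log2 scale, with the 4 APL arrays left of the 4 Control arrays and genes in rows by class. The top 5 rows, the immune-type genes, are red on all APL arrays (medians of 2.84 to 3.43), and the grey cell is the Control value of Psmc3 left out for a non-uniform spot.

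The constitutive catalytic subunits, which the immune-type ones replace in the core, were not called. Psmb5, the chymotrypsin-like subunit, had 3.801, 3.55, 3.82 and 5.16 in APL samples, against 7.56, 5.67, 5.197 and 3.02 in Control samples. Psmb6, the caspase-like subunit, had 0.815, 1.57, 1.096 and 1.39 in APL samples, against 1.87, 1.48, 1.24 and 0.805 in Control samples. Psmb7, the trypsin-like subunit, had 3.94, 2.78, 2.72 and 4.26 in APL samples, against 4.52, 3.12, 3.86 and 3.62 in Control samples. The groups overlapped for all 3. Their log2 fold changes were -0.33 for Psmb5 (95% interval -1.04 to 0.37, adjusted p = 0.459), -0.12 for Psmb6 (-0.88 to 0.63, adjusted p = 0.808) and -0.16 for Psmb7 (-0.70 to 0.38, adjusted p = 0.654), so that a fall of up to -1.04 for Psmb5 lies within the interval. Without scaling between arrays, where the median of all tested genes was 0.61, the signs turned, to 0.30 for Psmb5, 0.51 for Psmb6 and 0.48 for Psmb7.

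Each immune-type catalytic subunit was set against the one it replaces by the difference of their log2 values in each array, and the shift of this difference between groups was tested. The difference shifted by 3.57 for Psmb8 and Psmb5, by 4.77 for Psmb9 and Psmb6 and by 3.38 for Psmb10 and Psmb7, APL minus Control. In each pair all 4 APL samples lay above all 4 Control samples (exact two-sided permutation test over 70 splits, p = 0.0286 each and 0.0286 after adjustment over the 3 pairs, the smallest these splits allow). The arrays lay on 2 slides with 2 of each group. On the first slide the shifts were 3.74, 5.45 and 3.79, and on the other slide 3.40, 4.09 and 2.97, in the same order of pairs. Permuting within slides cannot give less than 0.0556, and the shifts are then the same by design, since each slide holds 2 arrays of each group. Over the alternatives the shifts ranged from 1.58 to 3.77, from 3.38 to 5.45 and from 2.58 to 3.79, with the lowest values under normexp.

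**Figure D3:**
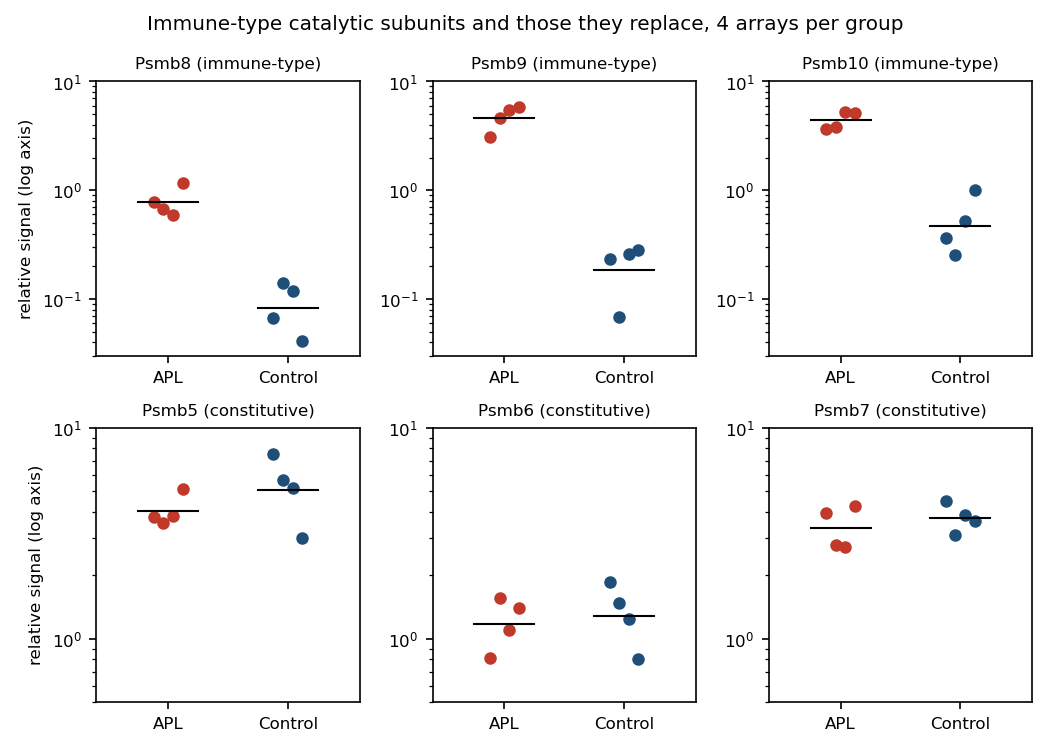
Relative signal on log axes of the immune-type catalytic subunits (upper panels) and of the subunits they replace (lower panels), with APL samples left of Control samples and a line at the geometric mean of each group. The upper panels show groups that do not overlap, such as 3.09 to 5.86 in APL against 0.0687 to 0.279 in Control for Psmb9, and the lower panels show groups that overlap.

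Of the alpha subunits, which form the gate of the core, none of 8 was called, and log2 fold changes ran from -0.43 to 0.61. The highest was Psma5, with 12.5, 10.4, 9.93 and 15.5 in APL samples, against 7.85, 5.85, 8.05 and 9.95 in Control samples. Only Control replicate 4 reached into the range of APL samples (log2 fold change 0.61 ± 0.24, adjusted p = 0.108). The lowest was Psma8, an alpha subunit known from testis, with 0.0375, 0.0441, 0.0276 and 0.02305 in APL samples, against 0.0258, 0.0536, 0.0508 and 0.0491 in Control samples and overlapping groups.

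The 4 structural beta subunits were not called either, at log2 fold changes of 0.08 to 0.52. Psmb2 was the highest, with 3.37, 5.03, 7.15 and 7.15 in APL samples, against 3.75, 4.59, 2.69 and 4.399 in Control samples. Psmb3 was the lowest, with 3.07, 3.81, 2.96 and 6.85 in APL samples, against 4.16, 3.78, 2.38 and 5.103 in Control samples. In both genes the groups overlapped.

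None of the 6 ATPases, which unfold substrates, was called, at log2 fold changes of -0.24 to 0.48. Psmc3 was the highest, with 7.19, 7.83, 6.83 and 7.64 in APL samples, against 7.61, 5.74 and 3.38 in Control samples. The value of Control replicate 4 was left out for a non-uniform spot, and the log2 fold change of 0.48 rests on 3 Control samples. Psmc1 was the lowest, with 3.98, 3.56, 3.82 and 4.04 in APL samples, against 4.48, 4.69, 3.44 and 5.83 in Control samples. For Psmc5 the groups did not overlap, with 28.4 to 32.4 in APL samples, against 33.6 to 37.6 in Control samples. The difference was small (log2 fold change -0.22 ± 0.17) and not called (adjusted p = 0.376), and 15.9% of all tested genes were lower in the same sense of no overlap.

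Of 13 Psmd genes, 2 were called lower and 11 were not called, where 11.5% of all tested genes were called lower. The median log2 fold change of the 13 was -0.16. Psmd13, a subunit of the lid, was the lowest of them with 0.1798, 0.1197, 0.124 and 0.1395 in APL samples, against 0.481, 0.252, 0.177 and 0.332 in Control samples. APL replicate 1 and Control replicate 3 overlapped, and the log2 fold change was -1.06 ± 0.33 (adjusted p = 0.0498). Psmd3, another lid subunit, had 2.79, 1.96, 1.64 and 1.45 in APL samples, against 4.16, 2.702, 3.66 and 3.57 in Control samples. Its groups also overlapped, at a log2 fold change of -0.88 ± 0.26 (adjusted p = 0.0465).

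Both calls were near the threshold. Psmd13 was called under 7 of 21 alternatives (adjusted p from 0.0155 to 0.837) and Psmd3 under 9 of 21 (0.0183 to 0.530). Leaving out any 1 of the 8 arrays left 0 or 1 of these 2 calls: Psmd13 was lost except without Control replicate 3, and Psmd3 except without APL replicate 1. The highest Psmd gene was Psmd8, with 0.7697, 1.12, 0.922 and 1.196 in APL samples, against 0.956, 0.712, 0.789 and 0.492 in Control samples and a log2 fold change of 0.46 that was not called. Psmd14, the deubiquitinase of the lid, spanned 0.130 to 1.14 in APL samples, against 0.396 to 1.03 in Control samples, and its interval of -2.03 to 0.90 was the widest of the Psmd genes.

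The other activators and the inhibitor were not called. Psme4, an activator tied to acetylated histones, had 1.69, 2.06, 2.999 and 1.86 in APL samples, against 1.01, 1.79, 1.28 and 1.002 in Control samples. The groups overlapped in 1 Control sample (log2 fold change 0.77 ± 0.28, adjusted p = 0.085), and another probe of the gene gave 0.06. Psme3, the nuclear relative of Psme1 and Psme2, was the lowest with 3.44, 2.55, 5.54 and 3.204 in APL samples, against 9.34, 4.22, 11.04 and 4.77 in Control samples. Its log2 fold change was -0.93 ± 0.39 with overlapping groups (adjusted p = 0.126), a sign opposite to that of its relatives. The difference between these relatives was not tested. Psmf1, an inhibitor of the core, had a log2 fold change of 0.47 on 1 probe and 0.16 on another.

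Among the Psmg genes, which encode assembly chaperones, Psmg4 was the 1 gene outside the immune-type set that was called higher. It helps to build the alpha ring and had 2.38, 3.01, 3.798 and 3.26 in APL samples, against 1.56, 1.25, 0.867 and 1.16 in Control samples. The groups did not overlap, and the log2 fold change was 1.37 ± 0.25 (adjusted p = 0.00654), with 1.54 on its other probe. The call held under 20 of 21 alternatives and was lost with normexp and 75th percentile scaling (log2 fold change 1.07, adjusted p = 0.0986, range 0.00174 to 0.0986). Psmg2 had 0.901, 0.456, 0.192 and 0.798 in APL samples, against 0.854, 0.577, 0.719 and 0.541 in Control samples. APL replicate 3 was the low sample, and the gene was not called (log2 fold change -0.40 ± 0.48). The genes listed apart were not called, at 0.92 for Psmc3ip and -0.93 for Psme3ip1.

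Promoter windows of 250 bases before to 50 bases after the transcription start, from RefSeq on the rat assembly GRCr8, were found for 40 of the 44 genes. They are shown for the 6 genes called higher, since a shared response element would be looked for there. Capitals mark matches on either strand to GAAA, any 2 bases and GAAA again, the core of the interferon-stimulated response element that IRF proteins such as Irf1 bind.
Psmb8 (chr20:4656982-4657281, GRCr8, minus strand): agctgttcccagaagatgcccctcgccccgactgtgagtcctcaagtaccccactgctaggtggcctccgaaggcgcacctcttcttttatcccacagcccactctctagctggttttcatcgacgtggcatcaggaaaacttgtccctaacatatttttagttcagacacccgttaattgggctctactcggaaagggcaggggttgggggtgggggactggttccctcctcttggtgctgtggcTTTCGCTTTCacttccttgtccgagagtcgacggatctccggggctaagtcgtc
Psmb9 (chr20:4668750-4669049, GRCr8, plus strand): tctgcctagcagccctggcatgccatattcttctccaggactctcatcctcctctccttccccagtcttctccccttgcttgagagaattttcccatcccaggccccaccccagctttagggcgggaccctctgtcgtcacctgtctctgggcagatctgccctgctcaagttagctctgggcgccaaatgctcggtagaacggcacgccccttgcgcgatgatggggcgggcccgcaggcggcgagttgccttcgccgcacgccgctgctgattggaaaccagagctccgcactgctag
Psmb10 (chr19:50743243-50743542, GRCr8, minus strand): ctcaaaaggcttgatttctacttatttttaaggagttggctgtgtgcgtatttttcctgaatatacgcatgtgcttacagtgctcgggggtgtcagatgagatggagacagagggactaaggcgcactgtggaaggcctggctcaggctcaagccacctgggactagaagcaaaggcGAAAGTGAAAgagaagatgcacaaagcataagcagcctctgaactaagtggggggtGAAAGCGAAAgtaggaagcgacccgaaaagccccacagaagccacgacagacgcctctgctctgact
Psme1 (chr15:33038721-33039020, GRCr8, plus strand): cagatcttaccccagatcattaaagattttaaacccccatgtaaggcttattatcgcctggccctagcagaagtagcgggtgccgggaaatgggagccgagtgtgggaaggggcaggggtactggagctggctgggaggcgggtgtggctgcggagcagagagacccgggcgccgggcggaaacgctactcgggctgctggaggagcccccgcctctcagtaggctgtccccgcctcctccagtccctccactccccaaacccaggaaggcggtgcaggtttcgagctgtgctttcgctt
Psme2 (chr15:33052702-33053001, GRCr8, minus strand): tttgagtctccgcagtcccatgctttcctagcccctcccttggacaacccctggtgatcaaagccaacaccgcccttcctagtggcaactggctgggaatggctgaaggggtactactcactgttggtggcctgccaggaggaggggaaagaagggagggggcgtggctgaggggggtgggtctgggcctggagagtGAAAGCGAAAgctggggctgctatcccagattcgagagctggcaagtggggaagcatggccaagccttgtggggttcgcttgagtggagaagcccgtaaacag
Psmg4 (chr17:30923324-30923623, GRCr8, minus strand): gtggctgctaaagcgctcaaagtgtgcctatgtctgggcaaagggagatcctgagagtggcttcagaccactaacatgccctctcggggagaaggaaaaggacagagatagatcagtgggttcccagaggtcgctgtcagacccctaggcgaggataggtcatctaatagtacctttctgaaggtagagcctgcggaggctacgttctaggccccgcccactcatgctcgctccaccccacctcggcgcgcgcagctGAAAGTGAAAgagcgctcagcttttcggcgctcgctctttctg

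This core was matched in 3 of the 5 immune-type windows and in 4 of the 35 other windows, which were those of Psma4, Psmb3, Psmd7 and Psmg4. Of all 33469 windows of the table, 3.92% held a match. Psmb10 held 2 matches, Psmb8 held 1 across the start, Psme2 held 1 that began 53 bases before the start, and Psmg4 held 1 after it. Psmb9 and Psme1 held none in this window, and Psmb9 had the largest log2 fold change of the 44 genes. The Psme1 window ended in TTTCGCTT, the beginning of this core as read on the other strand. A match running past the end of that window could not be seen. Psmb9 starts 457 bases from Tap1, which is read the other way, and the nearest match in between lay 112 bases before Tap1 and 336 bases before Psmb9, outside the Psmb9 window. Tap2, Psmb8, Tap1 and Psmb9 follow each other on chromosome 20 with 0 protein-coding genes between neighbours, and Psme1 and Psme2 on chromosome 15 have 1, Emc9, between them. A match describes letters and does not show a bound site.

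Other motifs were counted the same way on both strands. The gamma-activated site TTCNNNGAA, which reads the same on both strands, was matched in 1 immune-type window (Psmb8) and 3 others (Psmc6, Psmd3 and Psmd7), and in 8.87% of all windows. The antioxidant response core TGACNNNGC, read by Nfe2l1 and Nfe2l2, was matched in 0 of 5 immune-type windows and 8 of 35 others, Psmb5 and Psmb6 among them, and in 12.1% of all windows. CCAAT was matched in 2 of 5 and 18 of 35, and in 37.5% of all windows. Matches of different motifs overlapped in 1 window, by 1 base in Psmb2.

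**Figure D4:**
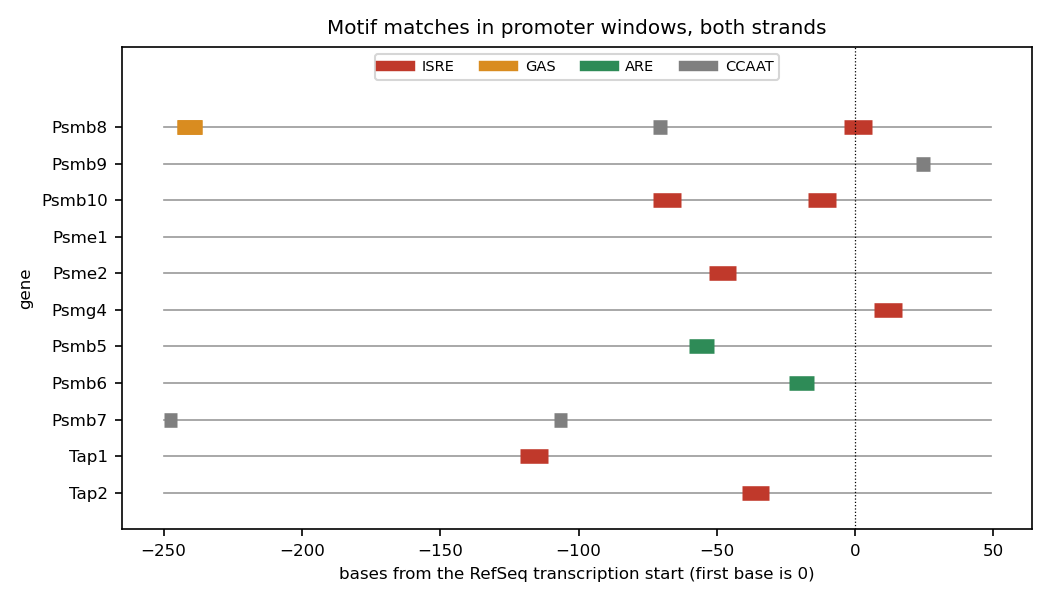
Motif matches along promoter windows of the genes called higher, of the constitutive catalytic subunits and of Tap1 and Tap2, in bases from the RefSeq transcription start, on either strand. ISRE is the core of the interferon-stimulated response element, GAS the gamma-activated site and ARE the antioxidant response core, and ISRE matches lie in Psmb8, Psmb10 (2 matches), Psme2, Psmg4, Tap1 and Tap2.

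The steps around the proteasome were described from lists of genes outside the rule, read beside the 23.5% of all tested genes called in either direction. By direction, 11.9% of all tested genes were called higher and 11.5% lower. Of proteasome partners, 10 of 16 were tested, 0 were called higher and 1 lower, with a median log2 fold change of -0.28. The lower one was Sem1, a small lid subunit, with 12.6, 15.00, 12.8 and 17.9 in APL samples, against 24.98, 23.6, 21.5 and 24.7 in Control samples, which is -0.71 ± 0.19 (adjusted p = 0.0326). Another probe gave -0.64. The call held under 11 of 21 alternatives (adjusted p from 0.00571 to 0.807), and with 1 array left out only without APL replicate 4 and without Control replicate 3. Pomp, the chaperone that assembles the core and favours the immune-type subunits, was not called (-0.28 ± 0.23, and 0.36 without scaling between arrays), nor was Nfe2l2, a regulator of proteasome genes under oxidative stress (0.18 ± 0.24). For Nfe2l1, which raises proteasome genes when the proteasome is inhibited, no probe was named here.

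Of the 14 tested ubiquitin and shuttle genes, 1 was called higher, where 11.9% of all tested genes were. Ubqln2, a shuttle that brings ubiquitinated proteins to the proteasome, had 0.587, 0.594, 0.5400 and 0.588 in APL samples, against 0.324, 0.3600, 0.344 and 0.361 in Control samples, or 0.73 ± 0.16 (adjusted p = 0.0157). Its groups did not overlap, and the call held under 18 of 21 alternatives (adjusted p from 0.000813 to 0.224), with a log2 fold change of 0.38 under normexp and quantile normalization. Of 8 tested peptidases that trim proteasome products, 1 was lower and 0 were higher. This was Lap3, leucine aminopeptidase, with 0.306, 0.164, 0.186 and 0.242 in APL samples, against 0.943, 0.719, 1.12 and 0.938 in Control samples and a log2 fold change of -2.08 ± 0.26 (adjusted p = 0.0011). Under normexp and 75th percentile scaling it was -1.05 and not called (adjusted p = 0.140), against 0.000391 to 0.140 over its 21 alternatives. In human cells Lap3 is known as a gene that interferon-gamma raises.

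Class I antigen loading, the step that uses immunoproteasome peptides, had 4 of 12 tested genes higher and 0 lower, with a median log2 fold change of 0.91. Among all tested genes 11.9% were called higher and 11.5% lower. Tap2, a chain of the peptide transporter, had 0.08502, 0.0633, 0.0831 and 0.1004 in APL samples, against 0.0184, 0.0183, 0.0351 and 0.0153 in Control samples. Its log2 fold change was 1.99 ± 0.30 (adjusted p = 0.00275), and 3 of 4 Control arrays had it well above background. Under normexp it was 0.31 with quantile normalization, still called, and 0.91 with 75th percentile scaling, not called (adjusted p = 0.318, in a range of 0.00092 to 0.318 over 20 alternatives). Tap1, the other chain, had 0.971, 0.175, 0.187 and 0.245 in APL samples, against 0.0944, 0.3296, 0.136 and 0.103 in Control samples. APL replicate 1 was far above the other APL samples, the groups overlapped, and Tap1 was not called (1.04 ± 0.63, adjusted p = 0.271).

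Tapbpl, a peptide editor, had 4.56, 0.501, 0.492 and 0.409 in APL samples, against 0.0105, 0.0101, 0.0221 and 0.0698 in Control samples, and 2 of 4 Control arrays had it well above background (log2 fold change 5.36 ± 0.92, adjusted p = 0.00508). Under normexp it was 2.05 to 2.31, and 19 of 20 alternatives called it (adjusted p from 0.00263 to 0.0529). Its probe would pass the filter of 4 of 8 arrays through the APL group alone. Tapbpl stands in the count and the median above, and its call is not read as evidence of a difference. B2m, the class I light chain, was higher by 0.68 ± 0.20 (adjusted p = 0.0434) and the class I gene RT1-T24-4 by 0.91 ± 0.26 (adjusted p = 0.041). Both calls were near the threshold. That of B2m held under 9 of 21 alternatives (adjusted p from 0.00243 to 0.519) and was lost with any 1 of the 8 arrays left out. That of RT1-T24-4 held under 11 of 21 (0.00473 to 0.329), and with 1 array left out only without Control replicate 3. Class I genes of the RT1 family are near copies, so probes may read more than 1 of them.

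Of the interferon-gamma pathway, 5 of 13 tested genes were higher, 1 was lower and 7 were not called, with a median of 0.66. Among all tested genes 11.9% were called higher and 11.5% lower. Irf1, a transcription factor known in human cells to act on the shared Psmb9 and Tap1 promoter, had 4.67, 6.33, 8.05 and 6.63 in APL samples, against 0.612, 0.564, 1.46 and 0.339 in Control samples. The groups were apart (log2 fold change 3.29 ± 0.43, adjusted p = 0.00138), and its other probe gave 2.36.

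Gbp2, an interferon-induced GTPase, had 2.83, 3.31, 6.26 and 3.17 in APL samples, against 0.313, 0.005, 0.265 and 0.01795 in Control samples, where 0.005 is the floor (log2 fold change 6.14 ± 1.30, adjusted p = 0.0128, and 3.36 to 3.49 under normexp). The Gbp2 probe was well above background on 4 APL and 3 Control arrays. Cxcl10, a chemokine, was higher by 2.80 ± 0.39 (adjusted p = 0.00191, and by 1.40 to 1.78 under normexp), while the related Cxcl11 was lower by -1.56 ± 0.44 (adjusted p = 0.0361). The call of Cxcl11 held under 11 of 21 alternatives (adjusted p from 0.00261 to 0.127), and with 1 array left out only without Control replicate 4. Log2 fold changes were above 0 for 10 genes of this list and below 0 for 3. Below 0 with Cxcl11 were Cxcl9 (-0.81 ± 0.45, adjusted p = 0.231) and Socs1 (-0.16 ± 0.23, adjusted p = 0.638), neither of them called. Over the alternatives Cxcl9 ran from -1.14 to 0.50 and Socs1 from -0.45 to 0.48. The probes of Ifng, the ligand, and of Ciita, the class II activator, were well above background on 0 of 8 arrays.

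**Figure D5:**
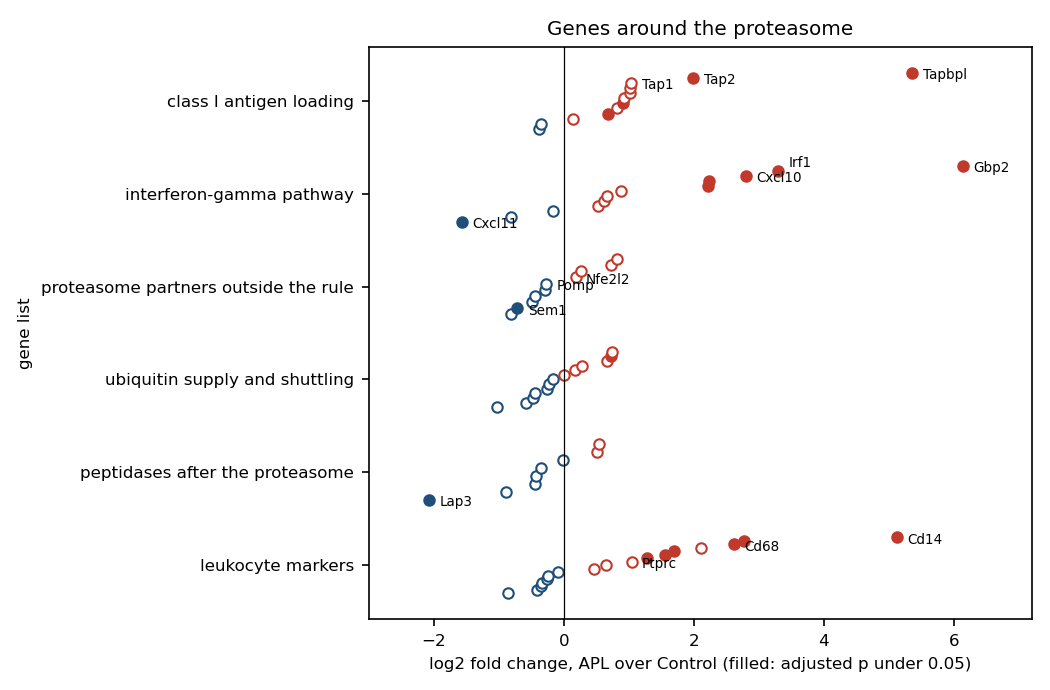
Log2 fold change, APL over Control, of the genes reported here from 6 lists outside the rule, each point 1 gene and filled where called, with some genes named. S100a8, well above background on 0 Control arrays, is not drawn; Irf1 at 3.29 lies within the range of the immune-type subunits and Gbp2 at 6.14 above it, and Lap3 at -2.08 lies at the low end of the peptidases.

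Many leukocytes hold immunoproteasomes, and some leukocyte markers differed between the groups. Of 18 tested markers, 7 were higher with APL and 0 lower, where 11.9% of all tested genes were called higher and 11.5% lower. The median log2 fold change of the 18 was 0.85. Their summed relative signal, in which the brightest probes weigh most, was 40.2 to 56.8 in APL samples, against 23.7 to 32.6 in Control samples. The 7 were Cd14, Cd68, Lyz2, Tyrobp, Fcer1g, S100a8 and S100a9, genes known from myeloid cells, among them Cd14 at 5.13 ± 0.78 and Cd68 at 2.62 ± 0.36 (adjusted p = 0.00281 and 0.00165). Under normexp Cd14 was at 2.54 to 2.77 and Cd68 at 1.34 to 1.77, still called, and the calls of Tyrobp, Fcer1g and S100a9 were lost with 75th percentile scaling (adjusted p = 0.0643, 0.0999 and 0.330). The Cd14 probe was well above background on 4 APL and 3 Control arrays, the S100a8 probe on 4 and 0, and the S100a9 probe on 4 and 1. The probes of S100a8 and S100a9, like that of Tapbpl, would pass the filter of 4 of 8 arrays through the APL group alone. S100a8 and S100a9 stand in the count and the median above, and their calls are not read as evidence of a difference. Other genes known from myeloid or antigen-presenting cells were below 0 and not called: Csf1r at -0.24 ± 0.47, Adgre1 at -0.34 ± 0.55 and Cd74 at -0.25 ± 0.26. Without scaling between arrays these 3 were above 0, at 0.40, 0.295 and 0.39. Ptprc, the pan-leukocyte marker, had 1.46, 0.437, 0.821 and 0.998 in APL samples, against 0.796, 0.2703, 0.157 and 0.856 in Control samples. The groups overlapped, and Ptprc was not called (1.04 ± 0.63, adjusted p = 0.264).

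Of markers of T and cytotoxic cells, Cd3d (0.65 ± 0.71) and Nkg7 (-0.34 ± 0.23, and 0.29 without scaling between arrays) were well above background on all 8 arrays and were not called. Cd3g was well above background on 4 APL and 2 Control arrays, at 2.10 ± 0.73, and was not called (adjusted p = 0.0732). The probes of Cd8a and Cd8b were well above background on 1 and 2 of 8 arrays, Cd3e on 1, and Itgam, a myeloid integrin, on 2. The part of leukocytes in the immune-type values was not tested, and in such whole-tissue RNA a different number of cells of a type and a different amount of RNA per cell cannot be told apart.

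Of kidney tubule and glomerulus markers all 16 were tested, 2 were higher and 7 lower with APL, where 11.9% and 11.5% of all tested genes were. The higher ones were Slc5a2 (3.04 ± 0.66) and Aqp2 (1.93 ± 0.48, called under 15 of 21 alternatives). The lower ones include the endothelial genes Pecam1 and Kdr. The summed relative signal of the 16 was 38.5 to 66.0 in APL samples, against 246 to 325 in Control samples. The brightest probes weigh most in this sum, such as Slc34a1 with a mean of 4.35 in APL samples, against 88.9 in Control samples. Blood genes were also lower, 3 of 4, with sums of 0.645 to 4.87 in APL samples, against 20.7 to 46.8 in Control samples. The 75th percentile that scales each array was 455 ± 53 in APL samples and 291 ± 18 in Control samples (SD, n = 4 each), and 79.9% to 81.9% of probes were well above background in APL samples, against 74.0% to 77.3% in Control samples. Without scaling between arrays, the median log2 fold change of all genes was 0.61 and that of the 39 other proteasome genes was 0.66, with 16 of the 44 genes called higher beside 27.4% of all tested genes, and with median scaling these medians were -0.31 and -0.27. The sign of the median of the 39 thus changed with the scaling, and the 5 immune-type genes kept log2 fold changes above 0 under each scaling run.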

How the data were processed

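Per the file headers, arrays were read with Agilent Feature Extraction 10.5.1.1 (protocol GE1_105_Dec08, design 028282, build rn4), and the deposited scanner files hold linear intensity values: a processed signal with background already removed, and median spot and background signals for the normexp alternative. The authors' deposited table holds log2 values. Set against the scanner files it is log2 of the scaled signal centred on each probe's median, in the same direction, since 93.96% of its values lay within 0.01 of values rebuilt so and correlations were 0.9993 to 0.9999. Its column medians were -0.071, 0.019, -0.135 and -0.043 for APL replicates 1 to 4, and 0.033, 0.065, 0.076 and 0.0054 for Control replicates 1 to 4. What the remaining values owe their difference to is unknown.

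Non-uniform spots (2 to 64 per array) were left out, spots of a probe were averaged, and signals were divided by the array's 75th percentile, floored at 0.005 and log2-transformed. Probes well above background on at least 4 of 8 arrays were kept (24339 of 30367), none of them saturated. Symbols came from RefSeq GRCr8 by unversioned accession (18643 probes named, 11724 not). The brightest kept probe stood for a gene. The comparison used limma 3.58.1 (R 4.3.3) with Benjamini-Hochberg adjustment over 21416 genes and a call at 0.05, and errors are moderated standard errors. The code was tested on simulated data. The number of arrays limits the precision.

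Members, lists and the rule for named genes were chosen with earlier results of these data known. The rule names the immune-type and catalytic genes, the highest and lowest of each class, the called genes, and per list up to 4 called genes with the largest change and Irf1, Tap1, Nfe2l1, Nfe2l2, Pomp and Ptprc. Psmc5, Psmd14, Psmf1, Csf1r, Adgre1, Cd74, Cd3d, Cd3g, Nkg7 and the markers of absent signal were added after their values were seen. Cxcl9, Cxcl11, Socs1, Lyz2, Tyrobp, Fcer1g, Slc5a2, Aqp2 and Pecam1 also lie outside this rule and are named with their values known. Psme3ip1 was set apart after the data were seen. Some genes that the rule names are not reported here. Replicate numbers are shared by the groups with no stated pairing. Alternatives covered background correction, scaling, floor, filter, probe rule, the authors' table, slide and replicate blocks, each slide alone and each array left out.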

Additional observations from a re-analysis of the deposited data

Results flagged for a closer look

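A sample far from the other 3 of its group was looked for in 97 groups of 4 values, and 5 were found, where chance gives about 1 in 20 groups. The measure is the gap to the nearest sample as a share of the group's range. In APL samples, replicate 3 was the lowest for Psmd10 (0.916). In Control samples, replicate 1 was the lowest for Psma8 (0.878), replicate 2 was the lowest for Psmb9 (0.872) and for Psmd5 (0.915), and replicate 3 was the highest for Psmf1 (0.969). Of these genes Psmb9 was called, and its log2 fold change without Control replicate 2 was 4.17, against 4.64 with all samples.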

How the results depend on the processing

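Psmb8, Psmb9, Psmb10 and Psme2 were called higher under all 21 alternatives with a test that use both slides, Psmg4 under 20 and Psme1 under 18. The 6 higher proteasome genes became 16 without scaling between arrays, 6 with any array left out, 3 and 1 with limma on the first and the second slide alone (added after the data were seen), and 4 to 8 under the other alternatives, which include counting Psmc3ip and Psme3ip1 (added after the data were seen). The 2 lower genes became 0 with normexp and 75th percentile scaling, without scaling, with the slide block, with the replicate block and on each slide alone, 1 with quantile normalization of the processed signal, the authors' table, no detection filter and every kept probe tested, and 0 to 1 with an array left out. The immune-type median of 3.22 was 1.80 with normexp and 75th percentile scaling, 1.93 with normexp and quantile normalization, 2.94 with median scaling, 3.86 without scaling, 2.90 and 2.83 on each slide alone, and 2.90 to 3.29 with an array left out. The median of the others, 0.018, was -0.13 with normexp and 75th percentile scaling, -0.27 with median scaling, 0.66 without scaling, and -0.098 to 0.064 with an array left out. Over all genes, 5026 calls became 2013 with normexp and 75th percentile scaling, 3258 with the replicate block, 1021 and 658 on the first and the second slide alone (2 arrays a group), and 3383 to 4189 with an array left out. Of the calls, 50.8% were higher, against 83.7% of 7020 without scaling and 31.1% with median scaling. The median over all genes was -0.029, and 0.61 without scaling, 0.36 with normexp and 75th percentile scaling, -0.31 with median scaling and -0.11 with quantile normalization. Some genes that were not called changed sign. Without scaling this held for 15 of the 39 other proteasome genes, among them Psmb5 (0.30), Psmb6 (0.51), Psmb7 (0.48), Psma8 (0.21), Psmc1 (0.400), Psmc5 (0.42), Psmd5 (0.58), Psmd10 (0.42), Psmd14 (0.074) and Psmg2 (0.24), and outside them for Pomp (0.36), Csf1r (0.397), Adgre1 (0.295), Cd74 (0.385) and Nkg7 (0.294). Median scaling turned 11 of the 39, with Psma4 at -0.164 and Psmb3 at -0.21, and also Nfe2l2 (-0.10). Normexp with 75th percentile scaling turned 9 of the 39, with Psma8 at 0.46, Psmb3 at -0.13 and Psmd5 at 0.074, and also Adgre1 (0.299) and Nkg7 (0.00165). The mean over its probes put Csf1r at 0.0027. With an array left out, values ran from -0.098 to 0.43 for Psma4, -0.19 to 0.23 for Psmb3, -0.35 to 0.055 for Psmb6, -0.36 to 0.12 for Psmd5, -1.05 to 7.8e-05 for Psmd14, -0.68 to 0.060 for Psmg2, -0.56 to 0.15 for Csf1r and -0.64 to 0.089 for Adgre1. With the slide or the replicate number as a block the pair shifts are 3.57, 4.77 and 3.38 by design, since each block holds as many APL as Control arrays. Their smallest possible exact p is then 0.0556 and 0.125. The deviations of same-numbered samples had correlations of -0.016 to 0.048. The Control sample that matched best had the same number for APL replicates 1, 2 and 3, and was Control replicate 1 for APL replicate 4. No pairing is stated, so the numbers are not read as pairs in the main fit, and whether they are pairs is not known. The replicate block also ended the calls of Psme1, Psmd3 and Psmd13. The cause of these changes was not tested. Psma8, on 1 probe, and genes not well above background on Control arrays are limited by signal.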
